A study of Homo sapiens with 15 samples.

Results

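The deoxynucleotide supply genes described here are TYMS, RRM1, RRM2, RRM2B, TK1, DUT, DCTPP1, SAMHD1 and DCK. They were taken by symbol from the table of read counts per gene and are 9 of its 58676 genes. All 9 were among the 14461 genes that passed the filter on low counts and were tested. PATU-8988T, a line of pancreatic cancer cells, was the source of all 15 RNA-seq libraries. Its cells were given 0.1% DMSO, 100 nM THZ1 for 4 h, 100 nM THZ1 for 24 h, 100 nM YKL-5-124 for 4 h or 100 nM YKL-5-124 for 24 h, with 3 libraries in each of these 5 groups. THZ1 and YKL-5-124 are covalent inhibitors of CDK7, the kinase of the transcription factor TFIIH that also activates the cell cycle kinases, and THZ1 is known to bind CDK12 and CDK13 as well. No duration is given for DMSO, so 1 set of DMSO libraries served both times, and the labels do not say whether replicates were separate cultures. If they were not, the p-values measure only technical spread.

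DNA synthesis needs a balanced supply of 4 deoxynucleoside triphosphates. Ribonucleotide reductase makes their precursors from ribonucleotides: RRM1 is its large subunit, RRM2 the small subunit of dividing cells in S phase, and RRM2B a small subunit induced by p53 and used outside S phase. Thymidylate has its own route: DUT splits dUTP to dUMP, TYMS methylates dUMP to dTMP, and TK1 salvages thymidine in dividing cells. DCK phosphorylates deoxycytidine and also activates gemcitabine, a drug used against pancreatic cancer. DCTPP1 and SAMHD1 work in the other direction: DCTPP1 hydrolyses dCTP and damaged cytosine nucleotides, and SAMHD1 breaks deoxynucleoside triphosphates down to deoxynucleosides.

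RRM2 and TYMS, both genes of S phase, were on opposite sides of DMSO after 24 h of THZ1, so the 250 bases before their RefSeq starts are shown (GRCh38.p14). The RRM2 stretch is chr2:10122489-10122738 on the plus strand and the TYMS stretch is chr18:657403-657652 on the plus strand. The counted gene span of RRM2 starts upstream of that, at base 10122328, so the RRM2 stretch lies inside it. For TYMS the counted span starts at base 657604, within the end of the stretch. Capitals mark motif matches.
RRM2: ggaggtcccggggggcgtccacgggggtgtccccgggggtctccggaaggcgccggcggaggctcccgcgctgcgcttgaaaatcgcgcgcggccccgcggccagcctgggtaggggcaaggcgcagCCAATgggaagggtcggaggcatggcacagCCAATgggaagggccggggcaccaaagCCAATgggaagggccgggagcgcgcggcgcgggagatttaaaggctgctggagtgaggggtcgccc
TYMS: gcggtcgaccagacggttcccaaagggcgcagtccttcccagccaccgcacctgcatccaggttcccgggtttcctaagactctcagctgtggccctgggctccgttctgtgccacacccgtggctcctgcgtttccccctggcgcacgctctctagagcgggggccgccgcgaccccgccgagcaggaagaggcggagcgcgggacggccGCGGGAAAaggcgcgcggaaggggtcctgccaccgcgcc
The capitals in RRM2 are 3 CCAAT boxes on the plus strand, starting 123, 93 and 66 bases before the start. The capitals in TYMS are the word TTTCCCGC read on the minus strand, starting at base -39. The motifs searched on both strands were CCAAT, the E2F-like words TTTCCCGC, TTTGGCGC, TTTCGCGC and TTTGCCGC, and the cell cycle element words TTTGAA and TTCGAA. Promoter windows from 250 bases before to 50 after the start were found for 8 of the 9 genes, all but RRM2B. Of 35116 such windows of all genes, 34.6% held a CCAAT box, 3.3% an E2F-like word and 16.4% a cell cycle element word. Among the windows of the 8 genes, CCAAT stood in RRM1, RRM2 and SAMHD1, an E2F-like word in TYMS and DCK, and a cell cycle element word in RRM1. TK1, DUT and DCTPP1 held none of these letters in the windows read, and a match describes the letters only. A single window was read per gene, though RefSeq gave 4 for DUT and 2 each for RRM2 and TK1. The start used lay 275 bases from the main annotated start for DCTPP1, 210 for DCK, 193 for SAMHD1 and 124 for RRM1. For the rest it was 49 bases or fewer, and a lack of matches holds for these windows only.

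Depth was 15567057 to 22869590 counts per library. The share of counts in mRNAs of 77 ribosomal proteins was 10.6% in DMSO, 12.7% and 21.9% with THZ1 at 4 h and 24 h, and 11.1% and 7.87% with YKL-5-124 at 4 h and 24 h. Levels are therefore relative, and the choice of scaling bears on every direction given here. The main scaling was TMM, which assumes that most genes do not change, and levels are counts per 1000000 of the scaled library total (CPM). With library totals as the scaling, the all-gene median of the THZ1 24 h log2 fold changes shifted by -1.13, and with ribosomal protein mRNAs as the reference by -2.20. For 24 h of YKL-5-124 those shifts were 0.14 and 0.58, and for 4 h of THZ1 they were -0.25 and -0.51. In bulk RNA, fewer cells with a transcript and less of it per cell cannot be told apart. Of the defining markers of pancreatic duct epithelium, KRT8 and KRT18 were abundant and EPCAM was detected at 12.7 to 36.4 CPM of library totals, while KRT19 and MUC1 were at or near 0. Markers of acinar, islet, immune and liver cells were at 0 to 0.361 CPM in all libraries. Of 4 endothelial and fibroblast markers PECAM1 and VWF stayed at or under 0.708 CPM, while COL1A1 reached 3.92 CPM, with group means of 0.409 in DMSO and 2.16 after 24 h of THZ1, and COL3A1 reached 3.43 CPM, with group means of 1.93 and 0.528. Their part in the values below was not tested.

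In DMSO the 9 genes spanned a wide range of levels per kilobase of gene length. TK1 stood at 88.5 ± 12.1 CPM per kb (SD, n = 3) and RRM1 at 82.0 ± 8.48, and their libraries overlapped. DCTPP1 followed at 36.6 ± 9.75 and overlapped DUT at 30.2 ± 2.37. RRM2 at 24.3 ± 1.79 and RRM2B at 18.9 ± 1.74 were separated from their neighbours. SAMHD1 at 13.3 ± 1.91, TYMS at 11.5 ± 0.40 and DCK at 11.0 ± 2.03 CPM per kb were the lowest, each overlapping the next. With THZ1 at 24 h, TYMS stood at 62.2 ± 6.93 CPM per kb, behind TK1 at 310.2 ± 6.29 and RRM1 at 153.5 ± 15.8, and no library of these 3 overlapped the gene next in order. At the other end DCK, RRM2B, RRM2 and DCTPP1, all between 7.88 and 15.2 CPM per kb, overlapped neighbour by neighbour. With YKL-5-124 at 24 h the lowest was TYMS, at 8.05 ± 0.62 CPM per kb, which overlapped DCK at 8.85 ± 0.43.

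**Figure D1:**
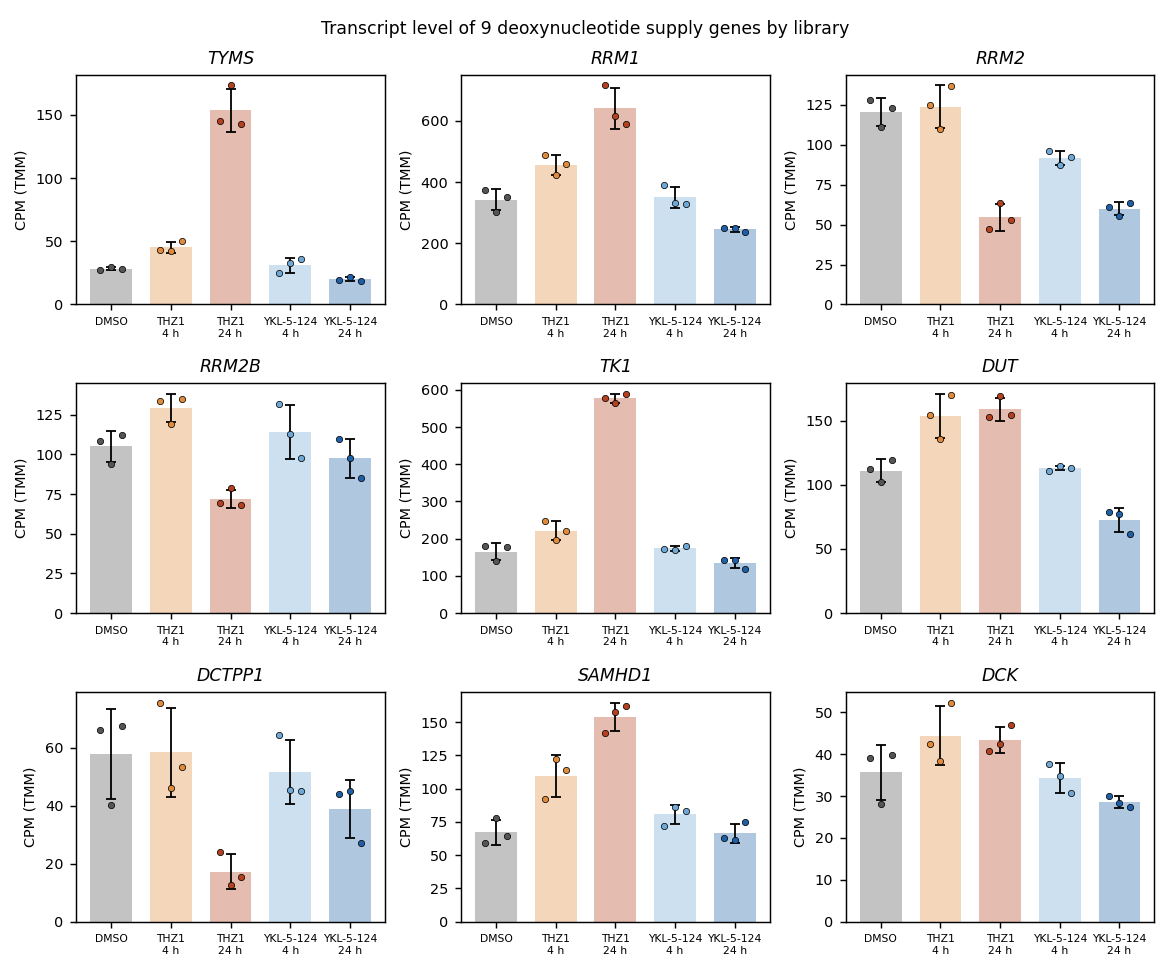
Level of each of the 9 genes in CPM on the TMM scaling (vertical axis, linear from 0) in the 5 groups (horizontal axis); points are single libraries, bars the mean and whiskers the SD of 3 libraries. TYMS and TK1 are highest after 24 h of THZ1, RRM2 is low after 24 h of either compound, and DCTPP1 has wide spread in every group.

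At 4 h of THZ1 the thymidylate genes TYMS, TK1 and DUT, the reductase subunit RRM1 and the hydrolase SAMHD1 rose on the TMM scaling, by 1.33-fold to 1.63-fold. A call here means an adjusted p under 0.05 in edgeR's quasi-likelihood test, adjusted over all genes tested. Thus 5 of the 9 genes were called higher and 0 lower, against a background of 16.9% of all genes higher and 25.1% lower. RRM2B, at a log2 fold change of 0.30 (95% interval 0.03 to 0.57), and DCK, at 0.32 (0.01 to 0.63), missed the call. RRM2 at 0.04 and DCTPP1 at 0.01 stood near 0. By library totals 2 genes, TYMS and SAMHD1, were called higher and 0 lower (background 4.03% and 32.0%). Against ribosomal protein mRNAs 0 were higher and 1, DCTPP1, lower (0.201% and 38.3%).

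The genes separated in both directions after 24 h of THZ1. On the TMM scaling 5 genes rose (TYMS, TK1, SAMHD1, RRM1 and DUT) and 3 fell (RRM2B, RRM2 and DCTPP1), while DCK was not called. The background was 32.3% of genes higher and 44.0% lower. By library totals the split was 2 higher and 6 lower (15.7% and 64.9%). With ribosomal protein mRNAs as the reference 0 were higher and 8 lower (3.9% and 81.2%). TYMS lay above DMSO in each of these scalings and by RLE and upper-quartile factors, although it was not called against ribosomal protein mRNAs, where its log2 fold change was 0.23. RRM2 and DCTPP1 were called lower in all 5, and RRM2B was lower in all 5 but not called by RLE (-0.22) or upper-quartile factors (-0.15). RRM1, DUT and TK1 turned sign under at least 1 of these scalings, as did SAMHD1.

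**Figure D2:**
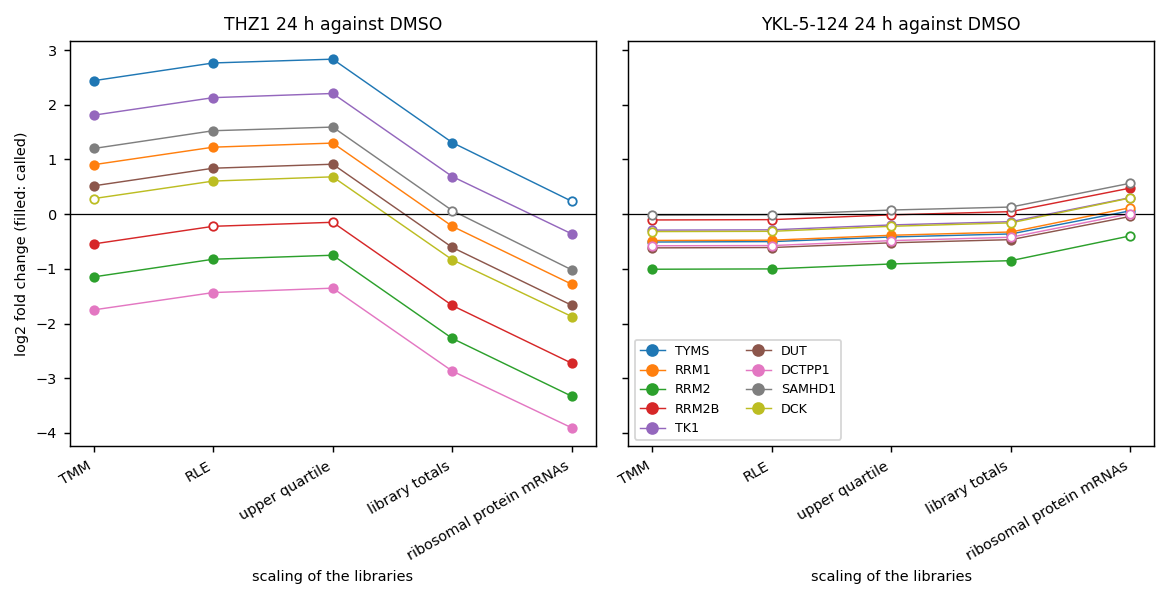
Log2 fold change of each gene against DMSO (vertical axis) after 24 h of THZ1 (left) and 24 h of YKL-5-124 (right) under 5 scalings of the libraries (horizontal axis); filled points passed an adjusted p of 0.05 and open points did not. The order of the genes changes little from scaling to scaling, while the level of the whole set moves: for THZ1 at 24 h TYMS is at 2.44 by TMM and 0.23 against ribosomal protein mRNAs, and RRM2 is at -1.15 and -3.33.

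YKL-5-124 for 4 h called 0 of the 9 genes higher and 0 lower in edgeR, with a background of 0.0553% and 0.463%. DESeq2 also called 0 and 0, and at an unadjusted p under 0.05 there was 1 gene, RRM2, where 9.79% of all genes reached that. The RRM2 log2 fold change was -0.39 (95% interval -0.65 to -0.14, adjusted p = 0.185), and the other 8 lay between -0.16 and 0.26. RRM2, DUT, TYMS and RRM1 fell on the TMM scaling by 24 h of YKL-5-124, so 0 genes were called higher and 4 lower against a background of 8.92% and 12.7%. By library totals it was 0 and 3 (14.5% and 8.2%), TYMS being lost, and against ribosomal protein mRNAs 2 and 0 (35.3% and 1.38%), with RRM2B and TK1 called higher. RRM2 was below DMSO in all 5 scalings, from -1.01 by TMM to -0.40 against ribosomal protein mRNAs, where it was not called.

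Single libraries mattered for the count after 24 h of YKL-5-124. Without DMSO replicate 2 it was 6 lower, with TK1 at -0.40 (adjusted p = 0.0189) and DCK at -0.46 (adjusted p = 0.0267) added. Without YKL-5-124 24 h replicate 1 or replicate 3 it was 3, since TYMS was lost at -0.50 (adjusted p = 0.0532) and at -0.46 (adjusted p = 0.0593). DMSO replicate 2 was the lowest of the 3 DMSO libraries for 7 of the 9 genes and the highest for the other 2, TYMS and SAMHD1. Other libraries stood low in a like way: THZ1 4 h replicate 2 was the lowest of its group for 8 of the 9 genes and YKL-5-124 24 h replicate 3 for 7.

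**Figure D3:**
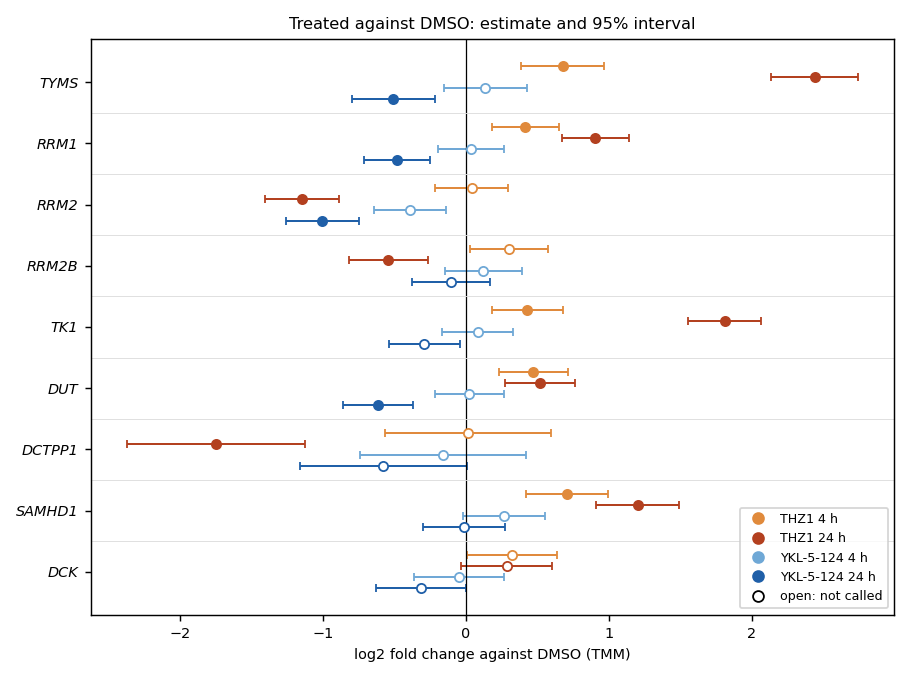
Log2 fold change against DMSO on the TMM scaling (horizontal axis) of the 9 genes (vertical axis) in the 4 treated groups; points are edgeR estimates, whiskers 95% intervals, and open points were not called. The THZ1 24 h points spread from -1.75 for DCTPP1 to 2.44 for TYMS, and the YKL-5-124 4 h points lie between -0.39 and 0.26.

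RRM1, the large subunit of ribonucleotide reductase, had 373, 304 and 351 CPM in DMSO. It had 487, 423 and 460.1 CPM after 4 h of THZ1 and 716, 617 and 590.2 CPM after 24 h. Both THZ1 groups lay wholly above DMSO. The log2 fold changes were 0.41 (SE 0.11, adjusted p = 0.00649) and 0.90 (SE 0.11, adjusted p = 1.89e-06), but against library totals the 24 h value turned to -0.22 and against ribosomal protein mRNAs both turned negative, to -0.10 and -1.28. With YKL-5-124 the libraries held 390.1, 332 and 329 CPM at 4 h, overlapping DMSO, and 251, 249 and 236 CPM at 24 h, all below it. The 24 h change was -0.48 (SE 0.11, adjusted p = 0.00556) on the TMM scaling and turned to 0.12 against ribosomal protein mRNAs.

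RRM2, the small subunit whose level limits the reductase in S phase, had 128, 111 and 123 CPM in DMSO and 125, 110.1 and 136 CPM after 4 h of THZ1, an overlap. At 24 h it had 47.1, 63.4 and 52.7 CPM with THZ1 and 61.2, 55.2 and 63.5 CPM with YKL-5-124. Every library at 24 h of either compound was below every DMSO library. The log2 fold changes were -1.15 (SE 0.12, adjusted p = 4.34e-07) for THZ1 and -1.01 (SE 0.12, adjusted p = 5.01e-05) for YKL-5-124. The YKL-5-124 libraries at 4 h, with 95.9, 87.1 and 92.3 CPM, already lay below DMSO without a call. RRM2 shares 8681 bases of its span with AC007240.1 on the same strand, a gene under 0.8 CPM in each group mean.

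RRM2B, the small subunit under p53 control, had 109, 94.1 and 112 CPM in DMSO. After 4 h of THZ1 its 134, 119 and 135 CPM lay above DMSO without a call on the TMM scaling, at an adjusted p of 0.0709. The gene was called higher there by RLE (adjusted p = 0.0302), upper-quartile factors (0.0411), DESeq2 (0.0199) and with the replicate block (0.0459), though not by library totals. At 24 h its 69.4, 78.7 and 67.8 CPM lay below, with a log2 fold change of -0.54 (SE 0.13, adjusted p = 0.00127). With YKL-5-124 it overlapped DMSO at both times, with 97.7 to 132 CPM at 4 h and 85.4 to 109.6 CPM at 24 h. The 24 h estimate for YKL-5-124 was -0.11 on the TMM scaling, and it turned to 0.48 (adjusted p under the threshold) against ribosomal protein mRNAs.

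The ratio of 2 transcripts within a library does not depend on the scaling. RRM2 to RRM1, per kb, was 0.289, 0.307 and 0.295 in DMSO. It was 0.0555, 0.0866 and 0.0753 after 24 h of THZ1, 0.24-fold of DMSO as a ratio of geometric means. It was 0.206, 0.187 and 0.226 after 24 h of YKL-5-124. All 12 treated libraries lay below all DMSO libraries, with means of 0.228 ± 0.019 (SD, n = 3) after 4 h of THZ1 and 0.222 ± 0.015 after 4 h of YKL-5-124. RRM2B to RRM2 moved the other way, from 0.778 ± 0.033 in DMSO to 0.936 ± 0.044 and 1.19 ± 0.11 after 4 h and 24 h of THZ1, and to 1.11 ± 0.15 and 1.46 ± 0.22 after 4 h and 24 h of YKL-5-124. Each of these 4 groups lay wholly above DMSO. In counts per kb of gene length, RRM2B was the scarcer small subunit transcript in all DMSO libraries and the more abundant one in all libraries at 24 h. How the counting treated reads that RRM2 shares with AC007240.1 is not given. With 3 libraries against 3 the two-sided exact permutation test cannot go below 0.1, which each of these 8 comparisons reached (adjusted p = 0.218 over 24 comparisons of 6 ratios).

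**Figure D4:**
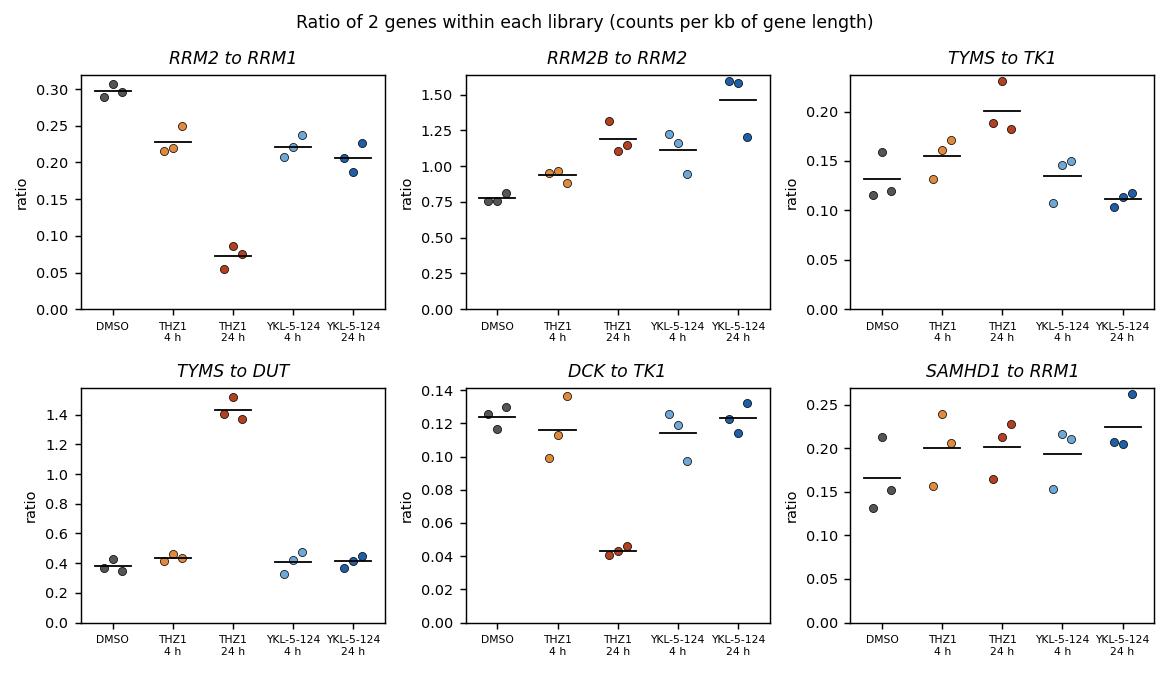
Ratio of 2 genes within each library, in counts per kb (vertical axis, linear from 0), in the 5 groups (horizontal axis); points are libraries and lines are means of 3. RRM2 to RRM1 drops to 0.0724 after 24 h of THZ1, and TYMS to DUT reaches 1.43 and DCK to TK1 0.0433 in the same group.

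TYMS, the enzyme that makes dTMP, had 27.4, 29.4 and 28.1 CPM in DMSO. It had 43.5, 42.1 and 50.1 CPM after 4 h of THZ1, and 145, 173 and 142 CPM after 24 h. All 6 THZ1 libraries lay above DMSO, and the 24 h level was 5.42-fold that of DMSO. The log2 fold changes were 0.68 (SE 0.14, adjusted p = 0.00102) and 2.44 (SE 0.14, adjusted p = 4.61e-10). Under library totals they were 0.41 and 1.31, both called. With YKL-5-124 TYMS had 24.7, 32.6 and 36.1 CPM at 4 h, around DMSO, and 19.5, 21.6 and 18.6 CPM at 24 h, all below it. The 24 h change was -0.51 (SE 0.14, adjusted p = 0.0159) on the TMM scaling, and 0.06 against ribosomal protein mRNAs. The last 3255 bases of TYMS overlap ENOSF1 on the opposite strand, and the strand setting of the counting is not given. ENOSF1 had 41.8 CPM in DMSO and 179 CPM after 24 h of THZ1 (log2 fold change 2.10, adjusted p = 1.5e-11), so reads of the 2 genes cannot be told apart there and the part of ENOSF1 in the TYMS value was not tested.

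TK1, the thymidine kinase of dividing cells, had 179, 139 and 176 CPM in DMSO, 248, 197 and 221 CPM after 4 h of THZ1, and 579, 565 and 588 CPM after 24 h. Both THZ1 groups were above DMSO. The log2 fold changes were 0.43 (SE 0.12, adjusted p = 0.00792) and 1.81 (SE 0.12, adjusted p = 1.81e-09). Against ribosomal protein mRNAs both were below 0, at -0.08 and -0.36, while by library totals both stayed above it, at 0.17 and 0.69. With YKL-5-124 TK1 overlapped DMSO at both times, with 168 to 181 CPM at 4 h and 119 to 144 CPM at 24 h. DUT, which feeds dUMP to TYMS and keeps dUTP low, had 112, 102 and 119 CPM in DMSO. Its THZ1 levels were 155, 136 and 170.3 CPM at 4 h and 153, 169 and 154 CPM at 24 h, which overlapped each other and all lay above DMSO. The log2 fold changes were 0.47 (SE 0.11, adjusted p = 0.00379) and 0.52 (SE 0.11, adjusted p = 0.000706), turning to -0.61 at 24 h by library totals and to -0.04 and -1.67 against ribosomal protein mRNAs. DUT with YKL-5-124 at 24 h had 78.8, 77.2 and 61.4 CPM, all below DMSO (log2 fold change -0.62, SE 0.11, adjusted p = 0.00146).

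Across the 15 libraries, Pearson's r of log2 CPM was 0.98 for TYMS and TK1, 0.787 for TYMS and DUT, and 0.76 for TK1 and DUT. The ratios of TYMS to DUT and to TK1 within a library lay apart from DMSO only after 24 h of THZ1. TYMS to DUT was 0.364, 0.428 and 0.350 in DMSO and 1.41, 1.52 and 1.37 after 24 h of THZ1, a 3.77-fold difference with no overlap (exact permutation p = 0.1, adjusted p = 0.218). It overlapped DMSO in the other 3 groups. TYMS to TK1 was 0.132 ± 0.024 (SD, n = 3) in DMSO and 0.201 ± 0.026 after 24 h of THZ1, again without overlap (exact p = 0.1), and overlapped DMSO elsewhere. SAMHD1 to RRM1 overlapped DMSO in all 4 treated groups.

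DCK, the deoxycytidine kinase, was called in no comparison with DMSO on the TMM scaling. At 4 h of THZ1 RLE factors (adjusted p = 0.0428) and DESeq2 (0.0322) called it higher. It had 39.1, 28.1 and 39.8 CPM in DMSO and 40.8, 42.4 and 47.0 CPM after 24 h of THZ1, a log2 fold change of 0.28 (95% interval -0.03 to 0.60, adjusted p = 0.0948). Those 3 libraries were all above DMSO, and without THZ1 24 h replicate 1 DCK was called higher at 0.37 (adjusted p = 0.0402), as it was by RLE and upper-quartile factors. By library totals it was called lower, at -0.83, and against ribosomal protein mRNAs too, at -1.87. DCK to TK1, the kinases of deoxycytidine and thymidine, was 0.126, 0.117 and 0.130 in DMSO and 0.0407, 0.0433 and 0.0461 after 24 h of THZ1, without overlap (exact permutation p = 0.1), and overlapped DMSO in the other 3 groups. DCK shares 29912 bases of its span with MOB1B on the same strand, which had 46.3 CPM in DMSO and 13.9 CPM after 24 h of THZ1.

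DCTPP1, the dCTP pyrophosphatase, had 66.2, 40.1 and 67.4 CPM in DMSO and varied as widely in most groups. With 24 h of THZ1 it had 24.0, 12.5 and 15.3 CPM, all below DMSO. That was the lowest estimate of the 9 genes, a log2 fold change of -1.75 (SE 0.29, adjusted p = 5.33e-05). After 4 h it had 46.2 to 75.6 CPM with THZ1 and 45.0 to 64.6 CPM with YKL-5-124, each overlapping DMSO. At 24 h of YKL-5-124 it had 27.2 to 45.0 CPM, which also overlapped DMSO. The YKL-5-124 24 h estimate was -0.58 with an interval of -1.16 to 0.00, and it was called lower with the replicate block (adjusted p = 0.0364) and without the filter on low counts (adjusted p = 0.00516). The SE of DCTPP1 was 0.27 to 0.29 in the comparisons with DMSO, against 0.11 to 0.15 for the other 8 genes. Its span overlaps ZNF771 on the opposite strand, which had 5.12 to 9.61 CPM in the group means.

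SAMHD1, the triphosphohydrolase, had 59.1, 77.8 and 64.4 CPM in DMSO. It had 92.2, 122 and 114 CPM after 4 h of THZ1 and 142, 158 and 162 CPM after 24 h, all above DMSO. The log2 fold changes were 0.71 (SE 0.13, adjusted p = 0.000658) and 1.20 (SE 0.14, adjusted p = 9.31e-07). By library totals they were 0.44, still called, and 0.06, not called, and against ribosomal protein mRNAs the 24 h value turned to -1.02. With YKL-5-124 SAMHD1 overlapped DMSO at both times, at 72.1 to 86.4 CPM and 61.3 to 74.9 CPM. The 2 hydrolases were thus on opposite sides of DMSO after 24 h of THZ1 on the TMM scaling.

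At the matched dose of 100 nM, the compounds differed at both times. At 4 h TYMS, RRM1, RRM2, TK1, DUT and SAMHD1 were higher with THZ1 than with YKL-5-124 on the TMM scaling, 6 genes higher and 0 lower against a background of 11.4% and 21.9%. The differences were 0.35 to 0.54 on the log2 scale. For RRM2 the YKL-5-124 libraries lay below DMSO and the THZ1 libraries overlapped it. By library totals no gene was called, 0 higher and 0 lower (1.38% and 28.8%), nor against ribosomal protein mRNAs, again 0 and 0 (0.18% and 30.9%). Without THZ1 4 h replicate 3 the count was 2, RRM1 and DUT, with TYMS at 0.45 (adjusted p = 0.0512) and RRM2 at 0.35 (adjusted p = 0.0554) lost, beside TK1 and SAMHD1. The RRM1 call was lost without YKL-5-124 4 h replicate 2 or 3 (adjusted p = 0.058 in both). The TK1 call was lost without any 1 of 5 of the 6 libraries, and the SAMHD1 call also without THZ1 4 h replicate 2 or YKL-5-124 4 h replicate 1, so DUT was the gene whose call held without each library in turn.

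At 24 h TYMS was 7.72-fold and TK1 4.29-fold higher with THZ1 than with YKL-5-124, at log2 differences of 2.95 (SE 0.15, adjusted p = 8.46e-11) and 2.10 (SE 0.12, adjusted p = 4.02e-10). RRM1, SAMHD1, DUT and DCK were also higher, at 1.39, 1.22, 1.13 and 0.60. DCTPP1, at -1.17 (SE 0.29, adjusted p = 0.00173), and RRM2B, at -0.44 (SE 0.13, adjusted p = 0.0061), were lower. The RRM2B call was lost by RLE (-0.12, adjusted p = 0.427) and upper-quartile factors (-0.14, adjusted p = 0.316), in DESeq2 and when only these groups were fitted. On the TMM scaling this made 6 genes higher and 2 lower (31.8% and 44.1% of all genes). RRM2 was not called: the difference was -0.14, with a 95% interval of -0.40 to 0.12, and the libraries overlapped. That depended on the scaling: by library totals RRM2 was lower with THZ1, at -1.42, and against ribosomal protein mRNAs at -2.93, both called, while RLE and upper-quartile factors put it at 0.18 and 0.16, not called. The splits were 2 and 4 by library totals (13.8% and 68.6%), where TYMS and TK1 were the genes higher, and 0 and 8 against ribosomal protein mRNAs (1.89% and 89.6%), where TYMS at 0.17 was the gene not called. RRM2 to RRM1 within libraries did not overlap between the compounds at 24 h, at 0.0555 to 0.0866 with THZ1 and 0.187 to 0.226 with YKL-5-124.

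**Figure D5:**
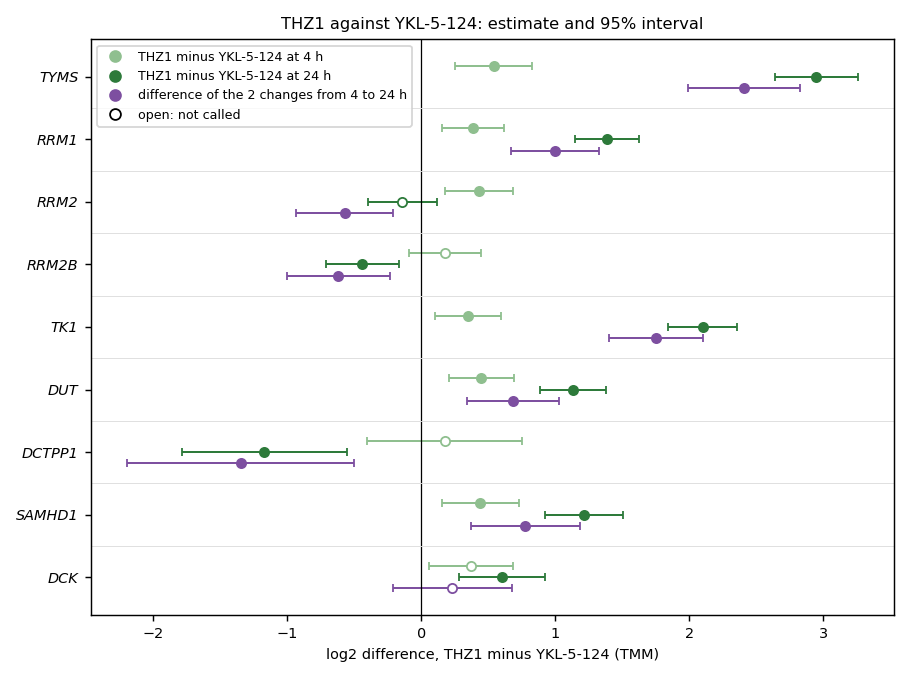
Log2 difference of THZ1 minus YKL-5-124 on the TMM scaling (horizontal axis) at 4 h, at 24 h, and the difference of the 2 changes from 4 to 24 h, for the 9 genes (vertical axis); points are edgeR estimates, whiskers 95% intervals, and open points were not called. TYMS and TK1 lie farthest right at 24 h, and the 24 h interval of RRM2 spans 0, from -0.40 to 0.12.

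From 4 h to 24 h of THZ1, TYMS rose by 1.76 on the log2 scale (SE 0.14, adjusted p = 2.33e-08) and TK1 by 1.38 (SE 0.12, adjusted p = 5.86e-08). SAMHD1 and RRM1 rose by 0.49 each. RRM2, at -1.19, RRM2B, at -0.84, and DCTPP1, at -1.76, fell, and DUT at 0.05 and DCK at -0.04 were not called. The DUT difference depended on the scaling: it was called higher at 24 h by RLE (0.29, adjusted p = 0.0395) and upper-quartile factors (0.42, adjusted p = 0.00223) and lower by library totals (-0.82, adjusted p = 1.97e-06). On the TMM scaling 4 genes were thus higher and 3 lower (31.4% and 35.7% of all genes), 2 and 7 by library totals (15.8% and 56.5%), where TYMS and TK1 were the genes higher, and 0 and 8 against ribosomal protein mRNAs (5.17% and 71.9%). From 4 h to 24 h of YKL-5-124 the changes were smaller and in 1 direction. TYMS (-0.64), DUT (-0.64), RRM2 (-0.61), RRM1 (-0.51) and TK1 (-0.37) fell on the TMM scaling, 0 genes higher and 5 lower (9.22% and 11.9%). It was 0 and 4 by library totals (15.8% and 7.22%), without TK1, and 2 and 0 against ribosomal protein mRNAs (46.9% and 0.892%), with RRM2B and TK1 higher. The TK1 call was lost without any 1 of the 6 libraries, with adjusted p from 0.0507 to 0.128.

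The test of the difference between these time courses called 8 genes. The change from 4 to 24 h was more positive with THZ1 for TYMS (2.41), TK1 (1.75), RRM1 (1.00), SAMHD1 (0.78) and DUT (0.69), and more negative for DCTPP1 (-1.35), RRM2B (-0.62) and RRM2 (-0.57). The RRM2B and RRM2 calls were lost by RLE (-0.38, adjusted p = 0.0987, and -0.34, adjusted p = 0.121) and by upper-quartile factors (-0.30, adjusted p = 0.139, and -0.26, adjusted p = 0.206). DESeq2 did not call them either, and DCTPP1 stayed lower in all 3. DCK, at 0.23 (95% interval -0.21 to 0.68), was not called. These 5 higher and 3 lower compare with 26.6% and 31.0% of all genes. By library totals it was 2 and 5 (10.8% and 54.7%), with TYMS and TK1 higher and RRM1, SAMHD1 and DUT below 0, and against ribosomal protein mRNAs 0 and 8 (1.35% and 78.7%), with TYMS at 0.07 not called.

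The rest of nucleotide metabolism was read from 5 lists of 61 genes, of which 60 were tested (TYMP was not). After 4 h of THZ1 24 were called higher and 6 lower on the TMM scaling (16.9% and 25.1% of all genes), with a median log2 fold change of 0.33 against 0.00 for all genes tested. By library totals that became 7 and 10 (4.03% and 32.0% of all genes), with a median of 0.08. Against ribosomal protein mRNAs it was 0 and 13 (0.201% and 38.3%), with a median of -0.17. After 24 h it was 32 and 21 on the TMM scaling (32.3% and 44.0% of all genes), with a median of 0.48 against -0.37. By library totals the 24 h split became 18 and 33 (15.7% and 64.9% of all genes), with a median of -0.64. Against ribosomal protein mRNAs it was 3 and 48 (3.9% and 81.2%). With YKL-5-124 there were 0 calls of either sign at 4 h, and at 24 h 4 higher and 26 lower (8.92% and 12.7% of all genes), with a median of -0.30 against -0.04. That last split became 8 and 15 by library totals (14.5% and 8.2%), and 21 and 3 with the ribosomal protein reference (35.3% and 1.38%). The same shares of all genes apply to each list below.

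The lists had different splits after 24 h of THZ1. In the thymidylate and folate cycle 7 of 10 genes rose and 1 fell on the TMM scaling, beside 32.3% and 44.0% of all genes. The split became 5 and 5 by library totals, and 0 and 8 with the ribosomal protein reference. DCTD, which deaminates dCMP to dUMP, went from 259 to 1154 CPM (log2 fold change 2.15, adjusted p = 1.13e-10). TK2, the mitochondrial thymidine kinase, fell from 24.0 to 7.93 CPM (-1.59, adjusted p = 4.31e-07). Both kept their sign and call by library totals, at 1.03 and -2.72.

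Synthesis of pyrimidines from small precursors went the other way. All 5 genes of that list were called lower after 24 h of THZ1 on the TMM scaling, by library totals and against ribosomal protein mRNAs. Of all genes, 44.0%, 64.9% and 81.2% were called lower on these 3 scalings. UMPS, which makes UMP, went from 84.4 to 3.38 CPM (-4.66, adjusted p = 2.11e-10), and DHODH from 29.6 to 3.96 CPM (-2.90, adjusted p = 6.31e-11). UMPS had already fallen after 4 h, at -1.56 (adjusted p = 1.9e-05). With YKL-5-124 at 24 h 4 of the 5 fell, 3 by library totals and 1 against ribosomal protein mRNAs (12.7%, 8.2% and 1.38% of all genes). DHODH was at -1.25 and CAD, the enzyme of the first 3 steps, at -1.05 by TMM. In the purine list 4 of 13 rose and 7 fell after 24 h of THZ1, shares near those of all genes (32.3% and 44.0%), and the split became 1 and 10 by library totals, and 0 and 12 with the ribosomal protein reference. On the TMM scaling PAICS went from 454 to 1281 CPM and ADSS from 89.4 to 10.8 CPM. With YKL-5-124 at 24 h 1 rose and 9 fell (8.92% and 12.7% of all genes), with PFAS at -1.32 and IMPDH2 at -0.88, against 1 and 5 by library totals, and 2 and 1 with the ribosomal protein reference.

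Salvage, kinases and transport held 12 genes called higher and 7 lower of 20 after 24 h of THZ1 on the TMM scaling, where all genes gave 32.3% and 44.0%. It was 9 and 8 by library totals, and 2 and 13 with the ribosomal protein reference. GUK1, the guanylate kinase, was at 2.62 (adjusted p = 1.01e-08), and SLC29A3, a nucleoside transporter of lysosomes, at -4.40 (adjusted p = 3.41e-07). SLC29A3 was scarce, with 3.95 CPM in DMSO and 0.189 CPM after 24 h of THZ1. NME2 at 3.73 and AK6 at -3.30 share sequence or exons with neighbouring genes, so their counts are uncertain. With YKL-5-124 at 24 h 0 rose and 6 fell (8.92% and 12.7% of all genes), SLC29A1, the nucleoside transporter of the cell surface, at -0.87 (adjusted p = 2.64e-05), but 2 rose and 4 fell by library totals and 8 rose and 0 fell against ribosomal protein mRNAs. Of the pool hydrolases and phosphatases 9 of 12 rose and 1 fell after 24 h of THZ1 on the TMM scaling (32.3% and 44.0% of all genes). DNPH1, which cleaves hydroxymethyl-dUMP, was at 2.61 and NT5E, the ectonucleotidase CD73, at 2.59, while PNP, the purine nucleoside phosphorylase, was at -1.74. By library totals that split became 3 and 5 (15.7% and 64.9% of all genes), and against ribosomal protein mRNAs 1 and 10 (3.9% and 81.2%). With YKL-5-124 at 24 h 1 of 12 rose and 3 fell by TMM (8.92% and 12.7% of all genes). By library totals it was 3 and 1 (14.5% and 8.2%), and with the ribosomal protein reference 7 and 0 (35.3% and 1.38%).

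A list of 28 S phase genes served as companions to RRM2, TYMS and TK1. After 24 h of THZ1 6 rose and 18 fell on the TMM scaling, with a median of -1.35, where 32.3% of all genes rose and 44.0% fell, with a median of -0.37. CDC6, which licenses replication origins, went from 72.0 to 2.24 CPM (-5.00) and CCNA2, the S phase cyclin, from 199 to 8.50 CPM (-4.55), whereas LIG1, at 1.75, and POLA1, at 1.38, rose on the TMM scaling. By library totals it was 1 higher and 24 lower, and against ribosomal protein mRNAs 0 and 27. With YKL-5-124 at 24 h 0 rose and 22 fell (8.92% and 12.7% of all genes), with a median of -0.75, and against ribosomal protein mRNAs 1 rose and 5 fell. TYMS and TK1 thus stood with the 6 companions that rose after 24 h of THZ1 and not with the 18 that fell, while RRM2 stood with the latter, all by TMM. Of 20 p53 targets listed beside RRM2B, 5 rose and 13 fell after 24 h of THZ1, and 7 rose and 4 fell after 24 h of YKL-5-124, beside the same shares of all genes. By library totals these were 1 and 16 and 8 and 3, and against ribosomal protein mRNAs 1 and 19 and 13 and 1. CDKN1A, the CDK inhibitor p21, went from 42.1 to 154.5 CPM after 24 h of YKL-5-124 (1.88, adjusted p = 2.92e-05), where RRM2B was at -0.11 and not called.

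The genes most like each member across the 15 libraries were sought among 9138 protein-coding genes by Pearson's r of log2 CPM, as a description. TYMS was most like RPLP2, a ribosomal stalk protein, at 0.997, and TK1 most like RPL8 at 0.998. RRM2 was most like DCAF17 at 0.964, RRM2B most like CCNH, the cyclin partner of CDK7, at 0.965, and DCTPP1 most like NUP37 at 0.988. For RRM1 it was NARS at 0.994, for SAMHD1 GLYR1 at 0.989, for DUT SRI at 0.988 and for DCK UBE2V2 at 0.937. Deviations from the group means, which leave out the differences between groups, gave r of 0.872 for TYMS and RPLP2 and 0.229 for RRM2 and DCAF17. Among the members, deviations from the group means were most opposed for DCTPP1 and SAMHD1 (-0.913) and most alike for RRM1 and DCTPP1 (0.876). DMSO replicate 2, for example, was the lowest DMSO library for DCTPP1 and the highest for SAMHD1. All these correlations share libraries, depth and the TMM scaling, whose part in them was not tested.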

How the data were processed

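The authors deposited 1 table of raw read counts per Ensembl gene for the 15 libraries, with symbols, positions and gene lengths; the values were not normalized. The submitters' processing notes list the GRCh38 build, the aligner STAR 2.6.1d, the counter featureCounts 1.5.0-p3 and DESeq2 1.24.0. The strand setting of the counting, how it treated reads with several matches, and its annotation were not given in the sources used here. All gene IDs (100%) were in GENCODE release 29, where 92.1% of gene lengths equalled the union of exons. Groups and replicate numbers came from the labels. No 2 libraries of a group agreed within sampling noise, and none was merged.

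Of 58676 genes, 30731 had a count. The filterByExpr filter, with its minimum count of 10 and minimum total of 15, kept 14461, holding 99.9% of the counts. Group differences were tested with edgeR 4.0.16 (R 4.3.3), by the quasi-likelihood F test in 1 fit to the 15 libraries, with TMM scaling and no factor but the group. Adjustment was by Benjamini-Hochberg over all 14461 genes, and an adjusted p under 0.05 was a call. The same fit gave 9 comparisons, standard errors and 95% intervals, and was tested on simulated data. In these a small set of genes was changed, in random directions, in the THZ1 24 h group. They therefore do not test the TMM scaling where many genes change. Ratios within libraries used counts per kb of gene length and a two-sided exact permutation test in SciPy 1.17.1. The lowest count of any of the 9 genes in a library was 122, for DCTPP1.

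The alternatives were RLE and upper-quartile factors, library totals, ribosomal protein mRNAs as the reference, DESeq2 1.42.0, no filter, a replicate block, only the groups compared, and each library left out in turn. For the ratios they were 1 count added and each library left out in turn. The genes and lists were chosen with earlier results of these data known. The named genes were the 9 members, the 2 most changed of the called genes per list and direction (mean CPM 1 or more), and for each member the 3 genes (mean CPM 5 or more) with the highest r of log2(CPM + 0.5), of which 1 is given in the text. A list gene and a cell type marker are not reported here by name. Promoter sequences came from RefSeq (GRCh38.p14).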

Additional observations from a re-analysis of the deposited data

Results flagged for a closer look

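A difference between the compounds in the change from 4 h to 24 h was found for 8 of the 9 genes by the test of that difference itself, the edgeR interaction of compound and time on the TMM scaling. It was 2.41 for TYMS, 1.75 for TK1, 1.00 for RRM1, 0.78 for SAMHD1 and 0.69 for DUT on the log2 scale, where the change with THZ1 was the more positive. It was -0.57 for RRM2, -0.62 for RRM2B and -1.35 for DCTPP1, where the change with THZ1 was the more negative. These 5 higher and 3 lower stand beside 26.6% and 31.0% of all genes. The split was 2 and 5 by library totals (10.8% and 54.7%), and 0 and 8 against ribosomal protein mRNAs (1.35% and 78.7%). The RRM2 and RRM2B calls were lost by RLE (-0.34 and -0.38) and upper-quartile factors (-0.26 and -0.30), and by library totals RRM1, SAMHD1 and DUT turned negative. TYMS and TK1, which rose from 4 to 24 h with THZ1, fell over the same hours with YKL-5-124 on the TMM scaling. The TK1 fall, at -0.37, was not called without any 1 of the 6 libraries, and against ribosomal protein mRNAs TK1 was called higher, at 0.29, and TYMS stood at 0.0122. RRM2 fell with both compounds, at -1.19 and -0.61, and its flag is a difference of size. The share of ribosomal protein mRNAs moved with these values, from 12.7% to 21.9% of counts with THZ1 and from 11.1% to 7.87% with YKL-5-124, and its part in them was not tested.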

How the results depend on the processing

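Of 1188 values of single genes under alternatives, 999 kept direction and side of the threshold, 64 lost the call and 27 gained one. A sign turned in 49 values that were called on TMM, under the alternative or both, and in another 49 that were called in neither. Of the latter, 14 came from ribosomal protein mRNAs, 6 from library totals and 19 from leaving out a library. All but 1 of the turns with a call came from library totals (13) or ribosomal protein mRNAs (35); the other was DCK in THZ1 24 h against 4 h, at 0.34 by upper-quartile factors. Library totals turned THZ1 24 h against DMSO for RRM1 (-0.22), DUT (-0.61) and DCK (-0.83); THZ1 against YKL-5-124 at 24 h for DUT (-0.14), SAMHD1 (-0.065) and DCK (-0.67); THZ1 24 h against 4 h for RRM1 (-0.38), DUT (-0.82) and SAMHD1 (-0.38); and the interaction for RRM1 (-0.0351), DUT (-0.34), SAMHD1 (-0.26) and DCK (-0.80). Ribosomal protein mRNAs turned THZ1 4 h against DMSO for RRM1 (-0.10), TK1 (-0.083), DUT (-0.045) and DCTPP1 (-0.50). For THZ1 24 h against DMSO they turned RRM1 (-1.28), TK1 (-0.36), DUT (-1.67), SAMHD1 (-1.02) and DCK (-1.87), and for YKL-5-124 24 h against DMSO TYMS (0.0615), RRM1 (0.12), RRM2B (0.48) and TK1 (0.30). Between compounds they turned RRM1 (-0.0425) and TK1 (-0.094) at 4 h, and RRM1 (-1.40), TK1 (-0.66), DUT (-1.63), SAMHD1 (-1.59) and DCK (-2.17) at 24 h. For THZ1 24 h against 4 h they turned RRM1 (-1.18), TK1 (-0.28), DUT (-1.62) and SAMHD1 (-1.20). For YKL-5-124 24 h against 4 h they turned TYMS (0.0122), RRM1 (0.17), RRM2 (0.0845), RRM2B (0.44), TK1 (0.29) and DUT (0.0172), and in the interaction RRM1 (-1.36), TK1 (-0.57), DUT (-1.64), SAMHD1 (-1.62) and DCK (-2.12). Each of the scalings applies 1 factor per library, so it shifts all genes of a comparison by nearly the same amount. The source of the turns was not tested.

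Counts of called genes, higher and lower, moved by over 1.5 times as follows. By library totals THZ1 4 h against DMSO gave 2 and 0, THZ1 24 h against DMSO 2 and 6, the compounds at 4 h 0 and 0, the compounds at 24 h 2 and 4, THZ1 24 h against 4 h 2 and 7, and the interaction 2 and 5. Against ribosomal protein mRNAs the same 6 gave 0 and 1, 0 and 8, 0 and 0, 0 and 8, 0 and 8, and 0 and 8, while YKL-5-124 24 h gave 2 and 0 both against DMSO and against 4 h. The compounds at 24 h gave 1 lower, not 2, by RLE, upper-quartile factors, DESeq2 and only the groups compared, and the interaction gave 1 lower, not 3, by RLE, upper-quartile factors and DESeq2. The genes lost were RRM2B in the first and RRM2B and RRM2 in the second. Without single libraries the count of genes higher with THZ1 than with YKL-5-124 at 4 h ran from 2 to 6, and that of genes lower after 24 h of YKL-5-124 than in DMSO from 3 to 6. The ratios within libraries kept their direction and side with 1 count added. With a library left out 3 against 2 cannot reach the threshold either. The causes of the changes in these counts were not tested.

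Whether the replicate numbers pair the libraries is not settled by these values. Same-numbered libraries of different groups had r of deviations from -0.47 to 0.532, over 0.1 in 20 of 30 pairs. Of the 15 libraries, 8 correlated best with their own number. With the replicate block the counts higher and lower were 6 and 0 for THZ1 4 h and 5 and 3 for THZ1 24 h against DMSO, 0 and 0 for YKL-5-124 4 h and 0 and 5 for YKL-5-124 24 h, 7 and 0 and then 6 and 2 between compounds, 4 and 3 and 0 and 5 for time, and 5 and 3 for the interaction. The calls it added were RRM2B higher after 4 h of THZ1, DCTPP1 lower after 24 h of YKL-5-124 and DCK higher with THZ1 than with YKL-5-124 at 4 h. In depth, DCTPP1 had 122 to 1668 counts per library, and 122 was the lowest single count of the 9 genes. DCK had 338 to 1125 counts per library and RRM1 5656 to 10267. DCTPP1 also had the largest SE, and the part of depth in that was not tested.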
